A study of Mus musculus with 18 samples.

Results

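The 9 CC chemokine genes Ccl2, Ccl3, Ccl4, Ccl6, Ccl7, Ccl8, Ccl9, Ccl11 and Ccl12 were followed through the heart after myocardial infarction. They were taken by their symbols from a table of read counts for 25230 gene symbols, and all 9 were found. The table came from bulk RNA sequencing of 18 mouse heart libraries. Male C57BL/6J mice had the left anterior descending coronary artery tied off, and tissue was taken 3 days later from the atria, the infarcted left ventricle (LV) and the non-infarcted LV. In each region 3 libraries came from mice treated with liraglutide, a drug that activates the GLP-1 receptor, and 3 from mice given PBS, a buffer that serves as the vehicle. All 6 groups were therefore from operated, infarcted hearts of the same sex and strain. Sham-operated mice are described with the samples, but no sham library was analysed here. For the dose, the schedule and the age of the mice, the sources used here say nothing.

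CC chemokines are small secreted proteins that draw leukocytes along a concentration gradient by binding G protein-coupled receptors named CCR. After an infarct, ligands of CCR2 are known for bringing inflammatory monocytes from blood into the heart, while ligands of CCR1 and CCR3 act on other myeloid cells, lymphocytes and eosinophils. Atypical receptors bind chemokines without this signal and clear or present them.

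In the infarcted LV, compared with the non-infarcted LV, the CCR2 ligands Ccl2 and Ccl7 and the eotaxin Ccl11 rose, in mice given PBS and again in mice given liraglutide. The macrophage inflammatory proteins Ccl3 and Ccl4 were also called higher there, but passed the filter for low counts through the group in which they were high. In the atria Ccl2, Ccl7 and Ccl6 were above the non-infarcted LV in mice given PBS. Ccl4 was called higher there too, again passing the filter through the group in which it was high. That Ccl4 call was lost in 2 of 12 alternative fits. Tested directly against the atria, the infarcted LV had less Ccl2, Ccl6 and Ccl7 in these mice. The Ccl6 call was lost in 3 of 12 alternative fits. Ccl3 was called higher in the infarcted LV, and here also passed the filter through that group. Liraglutide against PBS gave no call for any of the 9 genes in any region. Its fitted differences in the atria were all negative for the 8 genes tested.

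The 18 libraries held 4280459 to 21853482 counts, with a median of 11586459.5. Levels are given as CPM, the gene's count scaled by the total of its library, and in the order replicate 1, 2, 3. The labels call the 3 libraries of a group biological replicates without tying a number to an animal, so the p-values measure the spread between these libraries. The regions matched their labels: atrial cardiomyocyte markers summed to 37589 to 52757 CPM in atria and 199 to 574 CPM in LV, and ventricular markers to 12686 to 18193 CPM in LV. Among atrial libraries, liraglutide replicates 1 and 3 held 620 and 1635 CPM of ventricular markers against 97.5 to 150 CPM in those given PBS and 112 CPM in liraglutide replicate 2. PBS replicate 2 held 1051 CPM of adipocyte markers against 196 to 262 CPM in the other atrial libraries. Calls use edgeR's quasi-likelihood test with Benjamini-Hochberg adjustment over all genes tested, at adjusted p under 0.05. Errors of a fold change are standard errors (SE), and ± marks the SD over 3 libraries.

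All 9 genes lie on chromosome 11 (GRCm38, GENCODE gene models), in 2 clusters 1.46 Mb apart. The first spans 81.2 kb, from 82035571 to 82116799, and holds Ccl2, Ccl7, Ccl11, Ccl12 and Ccl8 in that order, all on the plus strand, with no other protein-coding gene wholly between them. The second spans 91.8 kb, from 83572919 to 83664683, and holds Ccl9, Ccl6 and Ccl3 on the minus strand and Ccl4 on the plus strand, and the annotation lists the gene Rpl9-ps1 among them. Genes of each cluster have 3 or 4 exons in their longest model. The first cluster gave 27.8 to 43.3% of the summed CPM of the 9 genes in the non-infarcted LV, 45.3 to 62.2% in the infarcted LV and 41.4 to 57.2% in the atria. The share of the first cluster thus lay lower in all 6 non-infarcted libraries than in any infarcted library.

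Ccl2, at chr11:82035571-82037453, encodes the ligand of CCR2 that is best known for recruiting monocytes. In mice given PBS it stood at 17.5, 19.8 and 9.71 CPM in the non-infarcted LV, 44.0, 33.1 and 35.3 CPM in the infarcted LV and 70.7, 111 and 60.8 CPM in the atria. All 3 groups were apart, in that order. The infarcted LV was 2.28-fold above the non-infarcted LV (log2 fold change 1.19, SE 0.22, edgeR adjusted p = 0.00332). The atria were 4.70-fold above the non-infarcted LV (log2 2.23, SE 0.29, edgeR adjusted p = 0.000919) and 2.11-fold above the infarcted LV (edgeR adjusted p = 0.00432). With liraglutide, Ccl2 stood at 17.98, 13.9 and 12.7 CPM in the non-infarcted LV, 34.7, 33.3 and 53.3 CPM in the infarcted LV and 49.0, 33.2 and 62.3 CPM in the atria. Both the infarcted LV and the atria were again clear of the non-infarcted LV, by 2.66-fold and 3.22-fold (edgeR adjusted p = 9.21e-05 and 0.000153). The atria and the infarcted LV overlapped in these mice and were not called apart (log2 -0.31 for infarcted LV against atria, SE 0.22, edgeR adjusted p = 0.285).

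Ccl7, at chr11:82045712-82047525, encodes a second CCR2 ligand. In mice given PBS it measured 7.64, 10.4 and 5.27 CPM in the non-infarcted LV, 33.2, 28.5 and 27.3 CPM in the infarcted LV and 47.2, 54.6 and 37.5 CPM in the atria. The groups did not overlap and kept the order seen for Ccl2. The rise in the infarcted LV was 3.67-fold (log2 1.88, SE 0.17, edgeR adjusted p = 1.45e-06), that in the atria 5.46-fold (log2 2.45, SE 0.19, edgeR adjusted p = 4.3e-06), and the infarcted LV was below the atria (log2 -0.61, SE 0.13, edgeR adjusted p = 0.00183). With liraglutide Ccl7 measured 5.84, 4.40 and 6.67 CPM in the non-infarcted LV, 29.7, 23.8 and 42.5 CPM in the infarcted LV and 25.8, 18.5 and 38.1 CPM in the atria. It was 5.58-fold higher in the infarcted LV and 4.85-fold higher in the atria than in the non-infarcted LV (edgeR adjusted p = 4.64e-06 and 7.73e-05).

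Ccl12 and Ccl8 lie beside one another, at chr11:82101845-82103400 and chr11:82115185-82116799. Ccl12 encodes a further ligand of mouse CCR2, and Ccl8 a chemokine that acts in the mouse through CCR8. Ccl12 was low, with 3 to 84 counts per library. In mice given PBS it stood at 1.59, 3.01 and 1.20 CPM in the non-infarcted LV, 1.99, 1.86 and 0.701 CPM in the infarcted LV and 3.23, 2.60 and 2.71 CPM in the atria. The infarcted and non-infarcted LV overlapped (log2 -0.24, SE 0.38, edgeR adjusted p = 0.625). With liraglutide it stood at 3.11, 1.85 and 2.08 CPM, 3.59, 3.13 and 2.31 CPM, and 1.2996, 0.669 and 3.84 CPM in the same order of regions, all overlapping. Ccl12 therefore passed no test in the region comparisons that called Ccl2 and Ccl7, although all 3 encode ligands of CCR2. Ccl8 was fainter still and was not tested in any comparison of a pair of groups, because its counts were under the filter. Its counts in mice given PBS were 8, 0 and 1 in the non-infarcted LV, 4, 10 and 3 in the infarcted LV and 6, 13 and 2 in the atria. With liraglutide they were 9, 5 and 3 in the non-infarcted LV, 6, 13 and 4 in the infarcted LV and 7, 4 and 22 in the atria. A level of 3 counts equals 0.137 to 0.701 CPM in these libraries.

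Ccl11, at chr11:82057823-82062955, encodes eotaxin, the CCR3 ligand that attracts eosinophils and is made by fibroblasts and other stromal cells. Its highest values were in the infarcted LV. With PBS it read 5.41, 6.87 and 6.83 CPM in the non-infarcted LV, 31.3, 22.7 and 22.2 CPM in the infarcted LV and 10.2, 21.5 and 7.50 CPM in the atria. The infarcted LV was 3.97-fold above the non-infarcted LV (log2 1.99, SE 0.17, edgeR adjusted p = 5.5e-07). Atrial values lay between, and did not pass the test against the non-infarcted LV (log2 0.97, SE 0.36, edgeR adjusted p = 0.0551) or the infarcted LV (log2 0.95 for infarcted LV against atria, SE 0.38, edgeR adjusted p = 0.0800). With the replicate number as a block the former was called (log2 0.87, edgeR adjusted p = 0.0179). Without atria PBS replicate 3 it was also called (edgeR adjusted p = 0.0112), and without atria PBS replicate 2 the infarcted LV was called above the atria (edgeR adjusted p = 5.13e-05). With liraglutide Ccl11 read 3.79, 4.20 and 3.92 CPM in the non-infarcted LV, 22.03, 21.6 and 34.2 CPM in the infarcted LV and 5.49, 3.81 and 10.98 CPM in the atria. The infarcted LV was then 6.34-fold above the non-infarcted LV and 3.65-fold above the atria (edgeR adjusted p = 3.06e-08 and 0.00209). Ccl11 made up 11.7 to 17.6% of the summed CPM of the 9 genes in the infarcted LV, 3.1 to 5.5% in the atria and 4.0 to 8.8% in the non-infarcted LV, without overlap between the infarcted LV and either other region.

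The receptor for eotaxin was almost absent from the counts. Ccr3 had 0 to 4 counts per library and 10 counts over all 18. The eosinophil markers Siglecf, Epx, Prg2 and Il5ra were at 0 in all 3 infarcted libraries from mice given PBS, and Epx and Il5ra in those given liraglutide. In the non-infarcted LV Il5ra was at 0 with PBS, and Siglecf, Epx and Il5ra with liraglutide. In the atria none of them was at 0 throughout with PBS, and Il5ra was with liraglutide. The wider list of 10 eosinophil and mast cell markers summed to 18.8 to 25.6 CPM in the infarcted LV, 5.7 to 9.4 CPM in the non-infarcted LV and 9.6 to 17.8 CPM in the atria. Fibroblast markers, a list of 8 that includes Dcn, Col1a1 and Tcf21, summed to 1731 to 2174 CPM in the infarcted LV and 696 to 916 CPM in the non-infarcted LV. All 8 were called higher there in mice given PBS, where 25.7% of all genes tested were called higher. In bulk tissue, more cells of a type and more RNA per cell cannot be told apart, and the part of these lists in the Ccl11 result was not tested.

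Ccl3 and Ccl4 lie next to each other at chr11:83647844-83649355 and chr11:83662584-83664683 and are transcribed away from one another. They encode macrophage inflammatory proteins, which activated macrophages and lymphocytes secrete, and Ccl3 is a ligand of CCR1. With PBS Ccl3 gave 0.294, 0.847 and 1.56 CPM in the non-infarcted LV, from 5, 9 and 13 counts. It gave 5.68, 5.85 and 6.54 CPM in the infarcted LV, from 57, 63 and 28 counts, and 1.18, 1.75 and 0.639 CPM in the atria. The infarcted LV stood apart from both other regions, which overlapped. Ccl3 was 7.30-fold higher in the infarcted than in the non-infarcted LV (log2 2.87, SE 0.38, edgeR adjusted p = 4.08e-05). This value ranged from 2.27 without non-infarcted LV PBS replicate 1 to 3.48 without replicate 3 of that group. Against the atria it was 4.65-fold higher (log2 2.22, SE 0.29, edgeR adjusted p = 4.89e-05). With liraglutide Ccl3 gave 0.228, 0.446 and 0.250 CPM in the non-infarcted LV, from 3, 7 and 3 counts, and 6.91, 5.37 and 5.36 CPM in the infarcted LV. The fitted rise was 17.8-fold (log2 4.15, SE 0.31, edgeR adjusted p = 7.72e-08), the largest among the 9 genes in either comparison of infarcted with non-infarcted LV. In the atria it gave 0.505, 0.535 and 1.83 CPM, and the infarcted LV was 5.62-fold above them (log2 2.49, SE 0.39, edgeR adjusted p = 0.000621), or log2 3.34 without atria liraglutide replicate 3.

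The 250 bases before the start of Ccl3 are shown because this gene had the largest rise in the infarcted LV. They run from the RefSeq promoter table (GRCm38.p6), chr11:83649379-83649628 on the minus strand, and carry no capitals, as none of the 4 motifs searched below was found in them:
Ccl3: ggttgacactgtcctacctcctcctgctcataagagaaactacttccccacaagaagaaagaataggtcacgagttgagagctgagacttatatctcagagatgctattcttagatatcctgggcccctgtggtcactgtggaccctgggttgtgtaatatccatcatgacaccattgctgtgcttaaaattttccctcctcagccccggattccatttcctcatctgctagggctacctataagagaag
The table held entries for 5 of the 9 genes, each of 300 bases, 250 before and 50 after the start. The motifs reported here, searched on both strands, were the TATA box TATAAA, the CCAAT box, the AP-1 site TGANTCA and the STAT site TTCNNNGAA. A motif of NF-kB was also searched and is not reported here. Over all 32851 promoters in the table they were found in 13.6%, 37.4%, 7.81% and 8.30%. The neighbours Ccl12 and Ccl8 had TATAAA 31 and 32 bases before the start. A match is a string of letters in this window and not a site of binding.

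Ccl4 in mice given PBS read 0.646, 0.941 and 0.719 CPM in the non-infarcted LV, from 11, 10 and 6 counts. It read 4.68, 2.32 and 5.14 CPM in the infarcted LV and 1.26, 4.14 and 2.55 CPM in the atria. Both regions were clear of the non-infarcted LV and overlapped each other. The rise was 4.89-fold in the infarcted LV (log2 2.29, SE 0.37, edgeR adjusted p = 0.000153) and 3.27-fold in the atria (log2 1.71, SE 0.45, edgeR adjusted p = 0.00844). The atrial call was lost without atria PBS replicate 2 (log2 1.12, edgeR adjusted p = 0.0636) and without non-infarcted LV PBS replicate 1 (edgeR adjusted p = 0.0523). With liraglutide Ccl4 read 0.379, 0.255 and 0.667 CPM in the non-infarcted LV, 4.42, 2.86 and 3.41 CPM in the infarcted LV and 0.289, 0.335 and 1.60 CPM in the atria. The infarcted LV was 8.24-fold above the non-infarcted LV and 4.30-fold above the atria (edgeR adjusted p = 5.34e-06 and 0.00735). The latter, log2 2.11, was 3.33 without atria liraglutide replicate 3. Ccl3 and Ccl4 passed the count filter through the group in which they were high, in every region comparison that called them. Their being called therefore does not add to the count of genes that rose.

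Ccl6 and Ccl9, at chr11:83587882-83593087 and chr11:83572919-83578636, encode CCR1 ligands of rodents that myeloid cells make without stimulation. They made up 27.1 to 38.6% and 28.0 to 33.5% of the summed CPM of the 9 genes in the non-infarcted LV, against 15.1 to 25.0% and 16.9 to 25.2% in the infarcted LV. With PBS, Ccl6 stood at 20.4, 33.4 and 30.0 CPM there, 26.9, 43.7 and 47.7 CPM in the infarcted LV and 57.5, 118 and 83.8 CPM in the atria. The infarcted and non-infarcted LV overlapped and were not called apart (log2 0.43, SE 0.28, edgeR adjusted p = 0.266), while the atria lay above both. Atrial Ccl6 was 2.86-fold above the non-infarcted LV (log2 1.51, SE 0.31, edgeR adjusted p = 0.00755) and 2.17-fold above the infarcted LV (edgeR adjusted p = 0.03004). The latter call was lost without infarcted LV PBS replicate 2 (edgeR adjusted p = 0.0734), without atria PBS replicate 3 (0.0804) and with no count filter (0.0792). With the replicate number as a block, Ccl6 was called higher in the infarcted than in the non-infarcted LV (log2 0.42, edgeR adjusted p = 0.000305), and likewise without infarcted LV PBS replicate 1 (log2 0.66, edgeR adjusted p = 0.0343).

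With PBS Ccl9 stood at 21.4, 38.0 and 22.2 CPM in the non-infarcted LV, 30.1, 36.1 and 44.9 CPM in the infarcted LV and 38.7, 78.0 and 47.4 CPM in the atria. It passed no test among regions in these mice: log2 0.37 (SE 0.25) for infarcted against non-infarcted LV and 0.90 (SE 0.32) for atria against non-infarcted LV, with edgeR adjusted p = 0.266 and 0.0618. The atria and the non-infarcted LV did not overlap, and that difference was called with the replicate number as a block (log2 0.87, edgeR adjusted p = 6.9e-05). It was also called without atria PBS replicate 1 (edgeR adjusted p = 0.0415) or non-infarcted LV PBS replicate 2 (0.0200). Without the latter library the infarcted LV was called above the non-infarcted LV too (log2 0.65, edgeR adjusted p = 0.00343).

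With liraglutide, Ccl6 stood at 33.9, 34.1 and 23.4 CPM in the non-infarcted LV, 38.3, 43.9 and 39.0 CPM in the infarcted LV and 41.0, 30.5 and 98.8 CPM in the atria. Ccl9 stood at 27.8, 29.1 and 19.4 CPM, 34.4, 45.5 and 38.0 CPM, and 30.0, 21.1 and 61.9 CPM in the same regions. Atria liraglutide replicate 3 was high for both genes, and the other atrial libraries overlapped the LV. Both genes were called in the infarcted against the non-infarcted LV, Ccl6 by 1.31-fold (log2 0.39, SE 0.13, edgeR adjusted p = 0.0231) and Ccl9 by 1.52-fold (log2 0.61, SE 0.15, edgeR adjusted p = 0.00679). The Ccl6 call was lost without infarcted LV liraglutide replicate 2 (edgeR adjusted p = 0.103) and without non-infarcted LV liraglutide replicate 3 (log2 0.24, edgeR adjusted p = 0.0904). Both calls were lost when all 18 libraries shared a fit (edgeR adjusted p = 0.436 for Ccl6 and 0.175 for Ccl9).

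The promoters of Ccl6 and Ccl9 are shown because these neighbouring genes, both encoding CCR1 ligands, share a stretch of letters close to their starts. The longest run of identical bases between them, 13 long and in capitals, begins 55 bases before the start of Ccl6 and 14 before that of Ccl9. Both are RefSeq promoter entries (GRCm38.p6, minus strand), cut to the 250 bases before the start, at chr11:83593088-83593337 and chr11:83578637-83578886:
Ccl6: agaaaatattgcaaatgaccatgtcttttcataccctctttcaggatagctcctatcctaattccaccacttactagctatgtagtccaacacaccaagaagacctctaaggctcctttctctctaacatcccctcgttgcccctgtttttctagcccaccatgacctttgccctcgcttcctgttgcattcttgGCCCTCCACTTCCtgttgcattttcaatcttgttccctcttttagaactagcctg
Ccl9: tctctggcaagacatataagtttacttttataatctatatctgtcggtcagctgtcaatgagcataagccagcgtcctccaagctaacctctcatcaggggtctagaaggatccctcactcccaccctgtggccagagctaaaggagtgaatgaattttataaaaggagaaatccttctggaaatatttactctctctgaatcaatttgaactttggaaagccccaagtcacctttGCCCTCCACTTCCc
The capital run was found on either strand in 6 of 32851 promoters in the table, including these. The Ccl9 promoter also held the AP-1 letters 53 bases before the start, and TATAAA 92 bases before it. The Ccl6 window held none of the 4 motifs. In their transcripts the genes shared at most 25 identical bases in a row, the longest such run among the 9 genes. The gene E230016K23Rik overlaps Ccl6 on the other strand and had 0 to 12 counts per library. Gm17268 overlaps Ccl2 on the other strand and was not analysed here. The strand setting of the counting is not given in the sources used here, so reads of overlapping genes cannot be told apart.

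**Figure D1:**
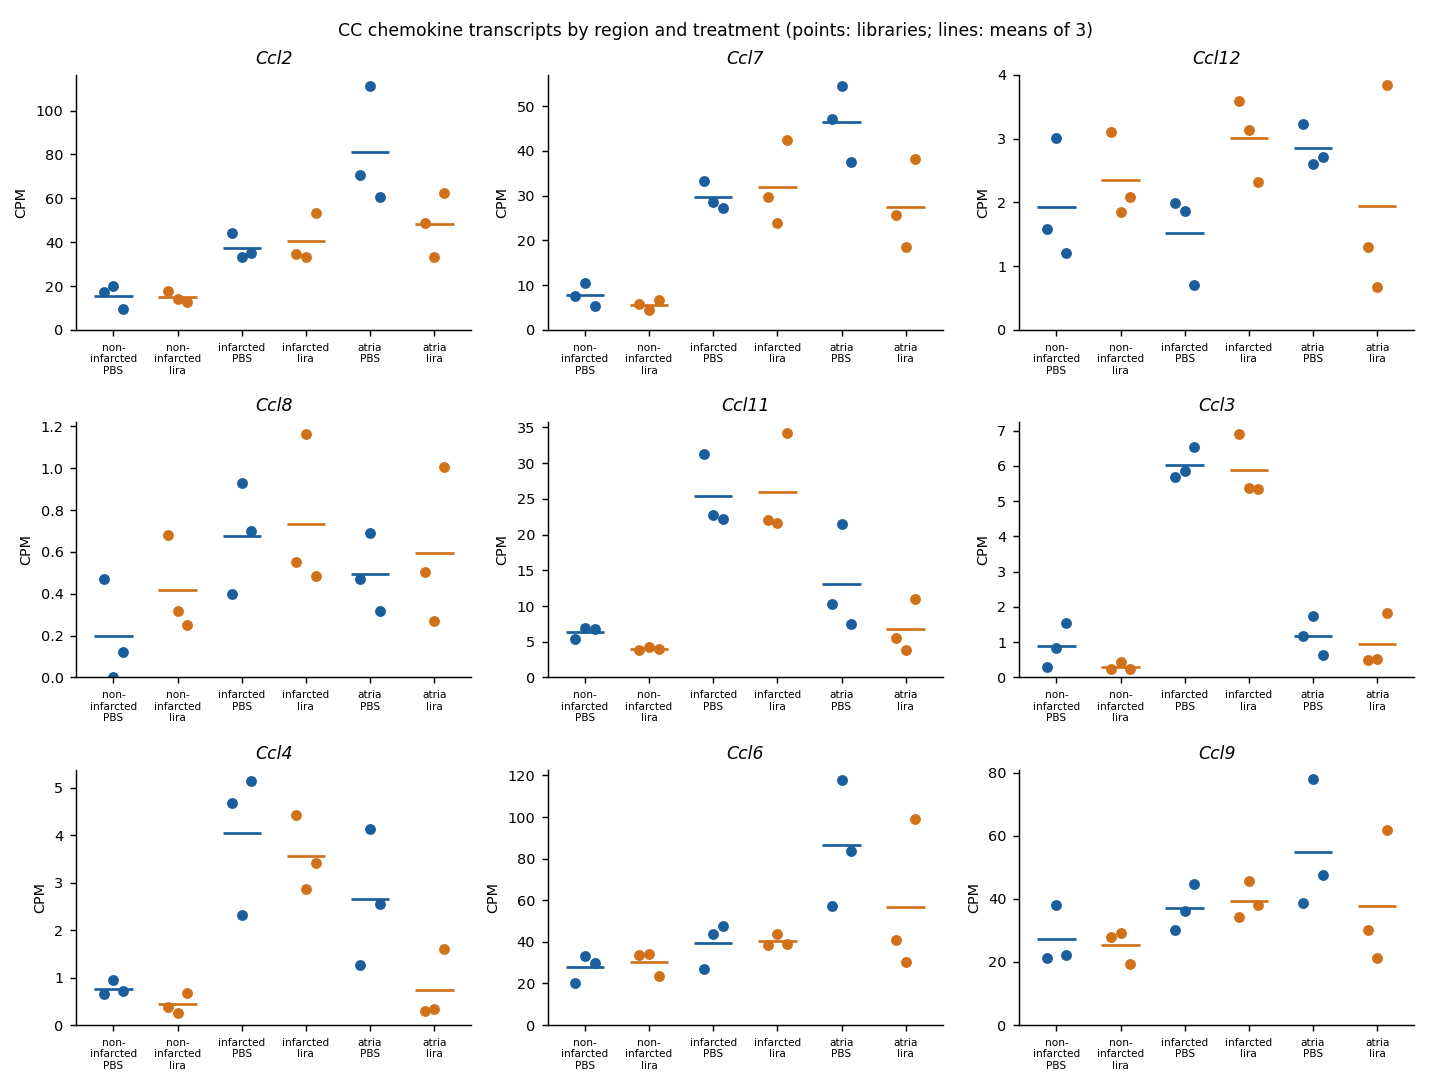
Level of each of the 9 CC chemokine genes in CPM (vertical axes, linear, starting at 0) in the 6 groups of region and treatment. Points are libraries and lines the mean of 3, blue for PBS and orange for liraglutide (lira). Ccl3 lay at 5.36 CPM or above in all infarcted libraries and at 1.83 CPM or below elsewhere, whereas Ccl2 and Ccl6 reached their highest values, 111 and 118 CPM, in atria PBS replicate 2.

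Ccl3 and Ccl4 are left out of the counts that follow, since their passing of the filter could rest on 1 group, and Ccl8 was not tested, which leaves 6 genes. In the infarcted against the non-infarcted LV with PBS, 3 of the 6 were called higher, Ccl2, Ccl7 and Ccl11, and 0 lower, where 25.7% of all 12831 genes tested were called higher and 21.7% lower. With liraglutide 5 of 6 were called higher and 0 lower, against 27.3% and 22.4% of 13022 genes. For atria against the non-infarcted LV, 3 of 6, Ccl2, Ccl6 and Ccl7, were called higher and 0 lower with PBS (26.3% and 25.6% of 13250 genes). With liraglutide 2 of 6, Ccl2 and Ccl7, were higher and 0 lower (24.6% and 22.9% of 13431 genes). For the infarcted LV against the atria with PBS, 0 of 6 were higher and 3, Ccl2, Ccl6 and Ccl7, were lower (26.1% and 26.2% of 13249 genes). With liraglutide 1 of 6, Ccl11, was higher and 0 were lower (21.2% and 22.1% of 13457 genes). The comparisons share their libraries: each group enters 2 of the region comparisons and 1 treatment comparison. Without atria liraglutide replicate 2, Ccl6, Ccl9 and Ccl11 were also called higher in atria than in the non-infarcted LV, making 5. Without atria liraglutide replicate 3, Ccl12 was called lower there (log2 -1.17, edgeR adjusted p = 0.0147). In the same setting Ccl9 and Ccl12 were called higher in the infarcted LV than in the atria, beside Ccl11. Whether the region differences themselves depended on treatment was tested with the contrasts of liraglutide effects given further on, which did not show it.

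**Figure D2:**
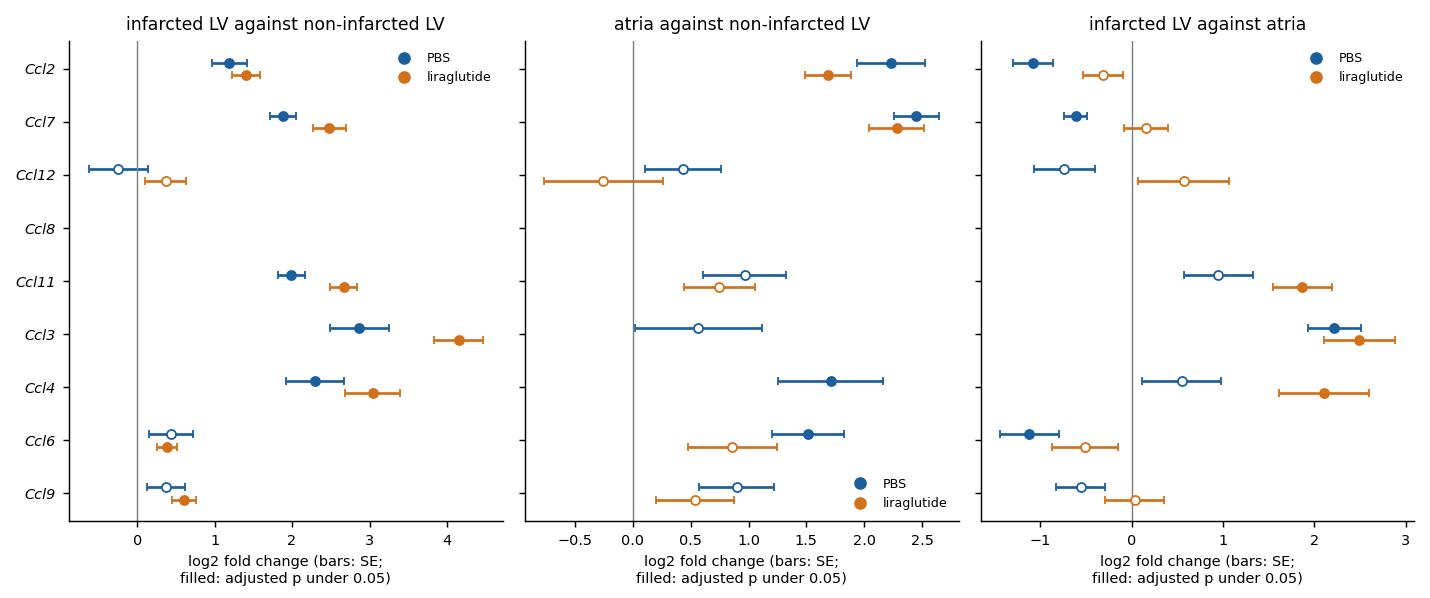
Fitted log2 fold changes (horizontal axes) of the 9 genes between regions, with SE as bars, blue for PBS and orange for liraglutide. Filled points had edgeR adjusted p under 0.05, and genes with no point were not tested. Ccl3 had the largest values of the left panel, 2.87 and 4.15. In the right panel Ccl2, Ccl6 and Ccl7 lay below 0 and Ccl3 above 0 with PBS.

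CPM is not scaled by gene length, and exons span from 0.511 kb in Ccl8 to 3.045 kb in Ccl9. Shares and sums of CPM over several genes are weighted by length in this way. Levels of different genes were therefore set side by side per kilobase of exon. On that scale, in CPM per kb, Ccl2 was highest in the atria with PBS (71.1 ± 23.5), then Ccl7 (58.0 ± 10.7) and Ccl6 (48.1 ± 16.9), whose spreads overlapped. In the infarcted LV with PBS, Ccl7 (37.0 ± 3.87) and Ccl2 (32.9 ± 5.08) led within their spread, followed by Ccl11 (23.5 ± 4.71) and Ccl6 (21.97 ± 6.14), which also overlapped, and Ccl9 (12.2 ± 2.44). In the non-infarcted LV with PBS, Ccl6 (15.6 ± 3.75) and Ccl2 (13.8 ± 4.66) led, ahead of Ccl7 (9.72 ± 3.23) and Ccl9 (8.93 ± 3.08). Ccl3, Ccl4, Ccl12 and Ccl8 stayed below 8 CPM per kb in the mean of every group. The gene at the head of the order thus differed between regions, from Ccl6 in the non-infarcted LV to Ccl7 in the infarcted LV and Ccl2 in the atria, each within the spread of the next.

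The receptor genes Ccr1 and Ccr2 passed the filter in all region comparisons. With PBS, Ccr2, the receptor of inflammatory monocytes, stood at 2.23, 4.61 and 2.64 CPM in the non-infarcted LV, 2.29, 1.95 and 4.44 CPM in the infarcted LV and 6.77, 31.1 and 17.2 CPM in the atria. Ccr1, the receptor for Ccl3, Ccl6 and Ccl9, stood at 3.88, 5.55 and 5.27 CPM, 5.18, 4.83 and 10.7 CPM, and 12.9, 42.5 and 25.4 CPM in the same regions. The atria lay above both parts of the LV, which overlapped. Neither receptor was called between infarcted and non-infarcted LV with PBS (log2 0.34 for Ccr1 and -0.30 for Ccr2, edgeR adjusted p = 0.348 and 0.506). DESeq2 called 0 of them as well, and 0 had an unadjusted edgeR p under 0.05. Between atria and non-infarcted LV both were called higher, Ccr1 by log2 2.36 (SE 0.48, edgeR adjusted p = 0.00842) and Ccr2 by 2.45 (SE 0.66, edgeR adjusted p = 0.0271). The Ccr2 call was lost without atria PBS replicate 3 (edgeR adjusted p = 0.0714), without any 1 of the non-infarcted LV libraries (0.0508 to 0.106) and with no count filter (0.0638). Without atria PBS replicate 2 its log2 value was 1.79.

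With liraglutide, Ccr1 was called higher in the infarcted than in the non-infarcted LV (8.77 against 3.65 CPM, log2 1.24, SE 0.17, edgeR adjusted p = 3.2e-05), and so was Ccr2 (3.39 against 1.85 CPM, log2 0.81, SE 0.26, edgeR adjusted p = 0.0178). The Ccr2 call was lost with DESeq2 (adjusted p = 0.0601), without infarcted LV liraglutide replicate 3 (edgeR adjusted p = 0.102) or non-infarcted LV liraglutide replicate 3 (0.0506), and both calls were lost with all 18 libraries in a fit (0.105 and 0.460). In the atria with liraglutide both receptors were highest in replicate 3, where Ccr2 reached 25.9 CPM against 4.84 and 3.55 CPM in the other libraries. The atrial calls of Ccr1 and Ccr2 over the non-infarcted LV had log2 1.77 and 2.57 (edgeR adjusted p = 0.0441 and 0.0339). Each was lost in 5 of the 12 alternative fits, and without atria liraglutide replicate 3 the values were 0.84 and 1.25. Other receptors were near the floor: Ccr4 had at most 1 count in a library, Ccr3, Ccr8 and Ccr9 at most 4, Ccr6 at most 8, Ccr10 at most 14 and Ccr7 at most 20.

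**Figure D3:**
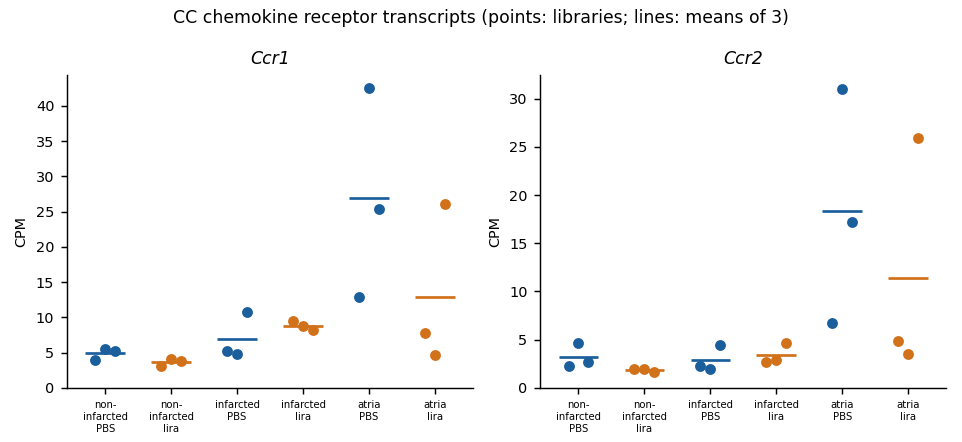
Transcripts of Ccr1 and Ccr2 in CPM (vertical axes, linear from 0) in the 6 groups, with libraries as points and means of 3 as lines, blue for PBS and orange for liraglutide (lira). Values in both parts of the LV stayed at or below 10.7 CPM, and atria PBS replicate 2 reached 42.5 CPM for Ccr1.

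Of 6 genes for receptors that bind chemokines without classical signalling, 5 were called higher in the infarcted than in the non-infarcted LV with PBS and 0 lower, with a median log2 fold change of 1.21 against -0.02 over all genes tested, of which 25.7% were called higher and 21.7% lower. Ackr3, a scavenger of the CXC chemokine Cxcl12, went from 76.3, 88.8 and 104 CPM to 224, 260 and 253 CPM (log2 1.40, SE 0.12, edgeR adjusted p = 4.25e-06). Ackr2, the scavenger of inflammatory CC chemokines, went from 6.17, 5.46 and 5.51 CPM to 7.57, 12.1 and 9.81 CPM (log2 0.72, SE 0.19, edgeR adjusted p = 0.00514), a call lost without infarcted LV PBS replicate 2 (edgeR adjusted p = 0.0647). Ackr1, which carries chemokines across venular endothelium, rose by log2 2.06 (SE 0.40, edgeR adjusted p = 0.000675). It was low over both treatments, with 2 to 21 counts per library in the non-infarcted LV and 7 to 28 in the infarcted LV. Its passing of the filter could rest on the group in which it was high, so its call does not add to the 5. In the atria with PBS it was also above the non-infarcted LV (log2 2.93, or 1.99 without atria PBS replicate 2). Ackr3 moved the other way in the atria, with log2 -0.57 against the non-infarcted LV (SE 0.16, edgeR adjusted p = 0.0134), a call lost without atria PBS replicate 1 (edgeR adjusted p = 0.0587). Ackr4, the scavenger of Ccl19 and Ccl21, was also lower in the atria than in the non-infarcted LV (log2 -1.87, SE 0.37, edgeR adjusted p = 0.0016).

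Among 12 other CC chemokine genes most were scarcely counted: Ccl21a had 0 counts, Ccl1, Ccl20 and Ccl26 at most 1 count in any library, and Ccl5 1 to 25 counts. Ccl24, the second eotaxin, rose in the infarcted LV with PBS from 3.11, 2.26 and 1.44 CPM to 9.07, 5.66 and 4.67 CPM (log2 1.43, SE 0.29, edgeR adjusted p = 0.00139). It was higher still in the atria, with 11.6, 16.5 and 12.3 CPM (log2 2.38 against the non-infarcted LV, SE 0.24, edgeR adjusted p = 1.29e-05). For infarcted LV against atria Ccl24 was called lower (log2 -0.98, SE 0.23, edgeR adjusted p = 0.00411), where Ccl11, the other eotaxin, had log2 0.95 and was not called. Ccl19, the CCR7 ligand of lymphoid stroma, stood at 18.4, 19.2 and 15.6 CPM in the atria and 2.29 to 3.50 CPM in both parts of the LV with PBS (log2 2.73 for atria against non-infarcted LV, SE 0.16, edgeR adjusted p = 2.84e-07). Of the 12 genes, 3 were tested between infarcted and non-infarcted LV with PBS and 1 was called higher, and 5 were tested between atria and non-infarcted LV and 4 were called higher. Over all genes 25.7% and 26.3% were called higher in these comparisons. One of the 4 called in the atria, Ccl27a, has near-identical copies in the mouse genome, so its counts are uncertain. Its call was lost in 6 of the 12 alternative fits. Another, Ccl17, lay at 0.869 to 1.28 CPM in the atria and at most 0.455 CPM in the non-infarcted LV over both treatments. It passed the filter through the atria, so its being called does not add to that count. Its log2 value of 2.30 was 6.56 without non-infarcted LV PBS replicate 1.

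Genes of the pathways that switch CC chemokines on, and of their feedback, were compared in the same way. Of 22 cytokines, NF-kB and STAT factors and feedback inhibitors, 17 were tested between infarcted and non-infarcted LV with PBS, 15 rose and 0 fell, with a median log2 fold change of 1.93. Of all genes tested 25.7% were called higher and 21.7% lower. The cytokine Il6 rose by log2 3.47 (SE 0.31, edgeR adjusted p = 0.000449), the NF-kB inhibitor Tnfaip3 by 2.58 (SE 0.13, edgeR adjusted p = 2.94e-09), and the factor Irf1 by 1.98 (SE 0.10, edgeR adjusted p = 2.94e-09). Tnf, low at 2.02 against 0.409 CPM, rose by log2 2.04 (SE 0.44, edgeR adjusted p = 0.00143). At this level it passed the filter through the infarcted libraries, so its call does not add to the 15. Genes tested only because they are high in 1 group can raise such a count and its median. Between atria and non-infarcted LV 12 rose and 1 fell of 17 tested, where 26.3% of all genes were called higher and 25.6% lower. Il1b, a cytokine of neutrophils and monocytes, was 71.5 against 3.33 CPM there (log2 4.33, SE 0.81, edgeR adjusted p = 0.011), whereas it was not called in the infarcted LV (14.4 CPM, log2 1.93, SE 0.73, edgeR adjusted p = 0.0948). Fos, an immediate-early gene, rose in the infarcted LV by log2 4.20 over non-infarcted libraries at 19.7, 17.7 and 149 CPM (SE 1.13, edgeR adjusted p = 0.0413) and was not called in the atria (log2 -0.31, SE 1.08, edgeR adjusted p = 0.837).

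Markers of many cell types moved with region. A list of 13 monocyte and macrophage markers summed to 158 to 203 CPM in the non-infarcted LV, 331 to 444 CPM in the infarcted LV and 149 to 680 CPM in the atria. With PBS, 7 of 10 tested were called higher in the infarcted than in the non-infarcted LV, among them Cd14 (log2 1.64, SE 0.16, edgeR adjusted p = 6.12e-06), and 10 of 10 in the atria, among them the inflammatory monocyte genes Plac8 (log2 3.57, SE 0.44, edgeR adjusted p = 0.000207) and Ly6c2 (log2 3.29, SE 0.53, edgeR adjusted p = 0.000508). Over all genes 25.7% were called higher in the infarcted LV and 26.3% in the atria. Over the alternative fits the atrial count of 10 markers ran from 6 to 10. Ly6c2 was lower in the infarcted LV than in the atria with PBS (0.315 against 4.14 CPM, log2 -3.86, SE 0.55). At such levels its passing of the filter could rest on the atrial libraries, so its calls do not add to the counts. Neutrophil markers, a list of 11, summed to 65.4 to 109 CPM in the non-infarcted LV, 78.3 to 210 CPM in the infarcted LV and 193 to 1143 CPM in the atria, with 1 and 10 of 10 tested called higher in the infarcted LV and in the atria with PBS, against the same 25.7% and 26.3% of all genes. Over the alternative fits these were 0 to 5 and 6 to 11. Other lists moved as well. With PBS, 7 of 8 resident macrophage, 6 of 6 endothelial and 4 of 6 smooth muscle and pericyte markers were called higher in the infarcted than in the non-infarcted LV. The share over all genes was again 25.7%. Over the alternative fits these counts ran from 4 to 7, 5 to 6 and 3 to 5. Mesothelial markers summed to 131 to 269 CPM in the atria, 29.7 to 38.2 CPM in the infarcted LV and 7.92 to 11.3 CPM in the non-infarcted LV. Cardiomyocyte markers summed to 50081 to 61778 CPM in the infarcted LV and 70138 to 77052 CPM in the non-infarcted LV. The part of these lists in the chemokine results was not tested.

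In the atria the order of the 6 libraries by the sum of the 9 chemokines was the same as their order by the monocyte and macrophage sum. From low to high it ran through liraglutide replicates 2 and 1, PBS replicates 1 and 3, liraglutide replicate 3 and PBS replicate 2, with chemokine sums of 109, 154, 231, 243, 280 and 393 CPM beside marker sums of 149, 234, 333, 375, 516 and 680 CPM. The neutrophil sum had the same order but for PBS replicate 3 and liraglutide replicate 3, which changed places. The resident macrophage and fibroblast sums were also lowest in liraglutide replicates 2 and 1, and highest in liraglutide replicate 3. In the LV the order within a region was not the same: infarcted LV liraglutide replicate 3 had the highest chemokine sum of its region, 219 CPM, with a marker sum of 343 CPM, the second lowest there. The 2 sums share the library total as a denominator, and Ccl6 and Ccl9 are themselves made by the cells that the markers name.

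**Figure D4:**
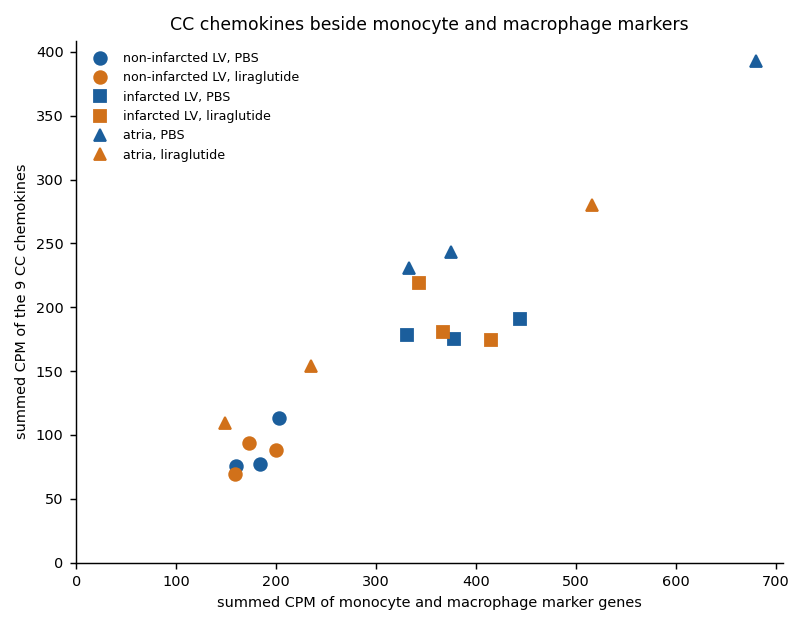
Summed CPM of the 9 CC chemokine genes (vertical axis) against the summed CPM of 13 monocyte and macrophage marker genes (horizontal axis), 1 point per library. Circles are non-infarcted LV, squares infarcted LV and triangles atria, blue for PBS and orange for liraglutide. Non-infarcted libraries lie at 69.4 to 113 CPM, infarcted ones at 175 to 219 CPM, and atria spread from 109 to 393 CPM on the vertical axis.

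By profile over the 18 libraries, the genes most like each chemokine were named by the smallest root mean square difference of centred log2(CPM + 1), among 13021 other genes with a mean CPM of at least 1. For Ccl6 they were Itgam, Ms4a6d and Sla (0.20 to 0.22), and for Ccl9 Fcgr3, Fyb and Lox (0.18 to 0.22). For Ccl2 they were Pdpn, Chst11 and Cdr2l (0.23 to 0.27), and Icam1 and Ugdh were among those for Ccl7 (0.32 to 0.34). Ccl3 was nearest to Rgs1, Bhlhe40 and Zfp36l1 (0.23 to 0.30) and Ccl4 to S1pr3, Stk17b and Sowahc (0.33 to 0.36). Ccl11 was nearest to Thbd, S1pr3 and Rnf125 (0.34 to 0.35) and Ccl12 to Engase, Chl1 and 4933431E20Rik (0.30 to 0.32). None of the 9 was among the nearest 3 of another. The SD of each chemokine's own profile was 0.46 for Ccl12, 0.53 for Ccl9, 0.67 for Ccl6 and 0.82 to 1.12 for the other 5. For Ccl12 the distance to its nearest gene was thus closer to its own SD than for the other genes, and Ccl8 lay under the minimum.

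Liraglutide against PBS was tested within each region. In the atria 0 of the 8 genes tested were called, where 0.00739% of 13530 genes were, and 3 had an unadjusted edgeR p under 0.05. These were Ccl7 (27.5 ± 9.90 against 46.4 ± 8.55 CPM, log2 -0.68, SE 0.21, unadjusted p = 0.0121), Ccl2 (48.1 ± 14.6 against 81.0 ± 26.8 CPM, log2 -0.66, SE 0.25, unadjusted p = 0.028) and Ccl4 (0.742 ± 0.745 against 2.65 ± 1.44 CPM, log2 -1.68, SE 0.64, unadjusted p = 0.0291). Their edgeR adjusted p-values were 0.541, 0.649 and 0.657. All 8 fitted values were negative, with a median of -0.60 against -0.00 over all genes, but the genes were measured in the same libraries and are not independent of one another. For 0 of the 9 genes were the groups free of overlap, where 14.9% of all genes were. Liraglutide replicate 3 exceeded at least 1 PBS library for each of the 9 genes. Ccl2, for example, was 49.0, 33.2 and 62.3 CPM with liraglutide, and only the last lay above the lowest PBS value of 60.8 CPM.

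Without liraglutide replicate 3 the atrial values became log2 -0.91 for Ccl7, -0.81 for Ccl2, -2.91 for Ccl4, -1.10 for Ccl6 and -1.12 for Ccl3 (edgeR adjusted p = 0.0688, 0.311, 0.079, 0.261 and 0.346), and 0 of the 9 were called. That library also held the most ventricular marker RNA of the atria, and the part of that in its chemokine values was not tested. Without it and PBS replicate 2 together, Ccl7 was at -0.80 and Ccl2 at -0.54 (edgeR adjusted p = 0.134 and 0.375), and again 0 were called. DESeq2 on all 6 libraries called 0 of the 9 as well. The monocyte and macrophage marker sum was 333, 680 and 375 CPM with PBS and 234, 149 and 516 CPM with liraglutide, and the neutrophil sum 391, 1143 and 881 CPM against 248, 193 and 577 CPM. The part of these differences in the chemokine values was not tested.

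In the infarcted LV edgeR called 0 of 8 genes, where it called 0% of 12988 genes, DESeq2 called 0 of the 9 and 1 of all genes, and 1 of the 8 had an unadjusted edgeR p under 0.05. The fitted differences of Ccl2, Ccl3, Ccl4, Ccl6, Ccl7, Ccl9 and Ccl11 lay between log2 -0.09 and 0.14. For Ccl2 the interval of plus or minus 2 SE ran from -0.27 to 0.46, for Ccl7 from -0.26 to 0.44, for Ccl11 from -0.38 to 0.39 and for Ccl3 from -0.37 to 0.38. These intervals bound the difference and do not show that the groups are alike. Ccl12 was the exception: it measured 3.59, 3.13 and 2.31 CPM with liraglutide and 1.99, 1.86 and 0.701 CPM with PBS, from 39, 35 and 19 against 20, 20 and 3 counts. Its groups did not overlap, as for 9.69% of all genes, and its difference was not called (log2 0.87, SE 0.32, unadjusted p = 0.0156, edgeR adjusted p = 0.851).

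In the non-infarcted LV edgeR called 0 of 6 genes, where it called 0% of 12919 genes, DESeq2 called 0 of the 9 and 2 of all genes, and 2 of the 6 had an unadjusted edgeR p under 0.05. Ccl11 was lower with liraglutide in every library, 3.79, 4.20 and 3.92 CPM against 5.41, 6.87 and 6.83 CPM, and 8.96% of all genes were likewise free of overlap. Its fitted value was log2 -0.68 (SE 0.18, unadjusted p = 0.00233, edgeR adjusted p = 0.999). Ccl7 overlapped between treatments (5.64 ± 1.15 against 7.79 ± 2.59 CPM, log2 -0.50, SE 0.22, unadjusted p = 0.0402, edgeR adjusted p = 0.999). Ccl3 and Ccl4 were under the filter, with totals of 13 and 17 counts over the 3 libraries with liraglutide and 27 and 27 with PBS.

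Whether liraglutide's difference varied between regions was tested as a contrast of effects in a fit of all 18 libraries. For atria minus infarcted LV, 0 of 9 genes were called with edgeR and 0 with DESeq2, where edgeR called 0% of 13920 genes, and 2 of the 9 had an unadjusted edgeR p under 0.05. Ccl7 had log2 -0.77 (SE 0.32, unadjusted p = 0.0281, edgeR adjusted p = 0.702), Ccl4 -1.53 (SE 0.66, unadjusted p = 0.0315, edgeR adjusted p = 0.72) and Ccl2 -0.76 (SE 0.36, unadjusted p = 0.0545, edgeR adjusted p = 0.775). For atria minus non-infarcted LV, and for infarcted minus non-infarcted LV, 0 of 9 genes were called by either tool, where edgeR called 0% of all genes, and 0 of the 9 had an unadjusted edgeR p under 0.05. The last contrast is also the difference between the infarct effect with liraglutide and that with PBS. The 17.8-fold and 7.30-fold rises of Ccl3 were thus not shown to differ (log2 1.32, SE 0.73, edgeR adjusted p = 0.9999).

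**Figure D5:**
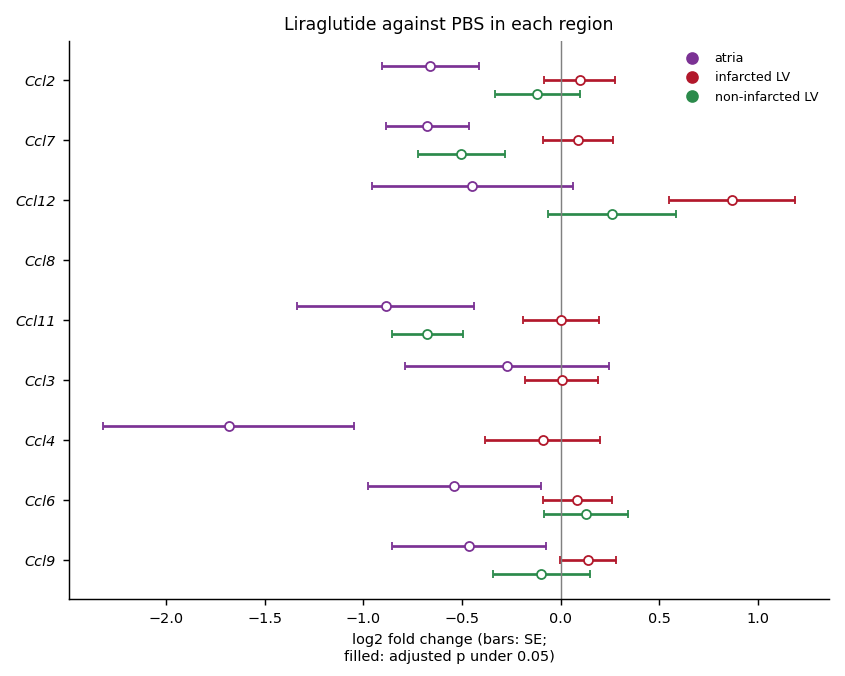
Fitted log2 fold changes of liraglutide against PBS (horizontal axis) for the 9 genes in atria (purple), infarcted LV (red) and non-infarcted LV (green), with SE as bars. No point is filled, as no edgeR adjusted p was under 0.05, and genes with no point were not tested. All 8 atrial values lie below 0, and 7 of the 8 values of the infarcted LV lie above it.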

How the data were processed

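The authors deposited raw counts of reads per gene symbol, whole numbers that were not normalized, for 18 polyA libraries made with a stranded kit, per the labels' protocols. STAR 2.7.9a, DESeq2 and mm10 are named, per the submitters' processing notes. How reads were counted, on which strand and with which gene models is not given in the sources used here. Total counts per library ran from 4280459 to 21853482, and a floor of 3 counts covers counting error only. Intervals of 2 SE come from the edgeR fit and include the spread between libraries. Libraries of a group differed by more than sampling noise (chi-square per degree of freedom 2.55 to 59.0).

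CPM is the count over the library total. Every comparison of a pair of groups used only those 6 libraries and edgeR 4.0.16 under R 4.3.3 (TMM factors, filterByExpr, robust quasi-likelihood fit), with Benjamini-Hochberg adjustment over all genes tested, and contrasts of effects in a fit of 18 libraries. The code was tested on simulated data. DESeq2 1.42.0, RLE factors, no filter, a filter of CPM 1 in 3 libraries, a shared fit, a replicate block and leaving out each library were alternatives.

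Same-numbered libraries deviated together between infarcted and non-infarcted LV (r from 0.152 to 0.164 with PBS and 0.128 to 0.170 with liraglutide) and between atria and non-infarcted LV with PBS (0.104 to 0.187), each of 3 pairs above 0.1. These pairs were therefore treated as paired in the block. The source of the pairing is this correlation, as the labels give only a number. The block was also run in the other comparisons, where pairing was not shown. Between infarcted LV and atria with PBS, r ran from -0.0020 to 0.146, with 1 of 3 pairs above 0.1. For liraglutide against PBS the block joined libraries of differently treated mice, so it does not stand for an animal there.

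The 9 genes and the gene and marker lists were chosen with earlier results of these data known. Named by rule were the 9 genes, receptors, up to 4 members of each list with the smallest p in a comparison, and the 3 genes most like each chemokine. Fos, Il1b, Tnf, Il6, Ackr4 and the low receptors and chemokines given by their counts were named after their values were seen. Some genes that the rule names are not reported here.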

Additional observations from a re-analysis of the deposited data

How the results depend on the processing

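Of the counts of chemokine genes called in the 9 comparisons and 3 contrasts, 10 stayed within 1.5 times under every setting run. Leaving out 1 library moved the count for atria against non-infarcted LV with liraglutide over 2 to 5 and that for infarcted LV against atria with liraglutide over 3 to 5. These counts include Ccl3 and Ccl4 where they were tested, unlike the counts given with the results. For liraglutide against PBS in the infarcted LV, the log2 value of Ccl3 (0.0047) was -0.00472 with DESeq2 and -0.00714 with all 18 libraries, and that of Ccl11 was -0.015 with the replicate block. That block joined libraries of different mice. The other reversals came from leaving out 1 library, in values that were not called. The ranges in the infarcted LV were -0.12 to 0.26 for Ccl2, -0.12 to 0.075 for Ccl3, -0.44 to 0.15 for Ccl4, -0.13 to 0.21 for Ccl6, -0.14 to 0.24 for Ccl7, -0.016 to 0.26 for Ccl9 and -0.21 to 0.22 for Ccl11. In the non-infarcted LV they were -0.31 to 0.036 for Ccl2, -0.082 to 0.27 for Ccl6 and -0.27 to 0.19 for Ccl9, and in the atria -1.12 to 0.10 for Ccl3. Between regions, Ccl12 ran from -0.44 to 0.14 for infarcted against non-infarcted LV with PBS and from -1.17 to 0.11 for atria against non-infarcted LV with liraglutide, and Ccl3 from -0.014 to 1.18 for atria against non-infarcted LV with PBS. For infarcted LV against atria with liraglutide the ranges were -0.79 to 0.039 for Ccl6, -0.070 to 0.37 for Ccl7 and -0.23 to 0.48 for Ccl9. The contrast of atria minus non-infarcted LV gave -0.38 to 0.028 for Ccl7, and that of infarcted minus non-infarcted LV -0.0016 to 0.43 for Ccl2. The cause was not tested.

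Beyond the calls given with the results, the replicate block called Ccl9 lower in infarcted LV than atria with PBS (log2 -0.52, edgeR adjusted p = 0.0439). Same-numbered libraries of these groups did not all deviate together, so pairing was not shown for that block. DESeq2 called Ccl9 lower (-0.55) and Ccl11 higher (0.98) in the same comparison, and the fit of all 18 libraries called Ccl11 (0.95). DESeq2 and that shared fit also called Ccl9 and Ccl11 in atria against non-infarcted LV with PBS. The block changed no other call of the 9 genes. Over all genes, liraglutide against PBS in the atria gave 1 call with edgeR and 118 with DESeq2, 94 with all 18 libraries, 105 without liraglutide replicate 3 and 80 without that library and PBS replicate 2. In the infarcted LV edgeR gave 0 calls, 35 with no filter, and in the non-infarcted LV 0 and 5. Ccl12 had 3 to 84 counts per library and Ccl8 0 to 22.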
